A study of Rattus norvegicus with 2 samples.

Results

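Notch signalling passes from one cell to its neighbour: a ligand of the Jagged or Delta-like family on one cell binds a Notch receptor on the next, the receptor is cut by an ADAM protease and then by γ-secretase, and the freed intracellular domain enters the nucleus and joins the DNA-binding protein RBPJ to switch on genes such as Hes1 and Hey1. In the epidermis Notch signalling is known for acting in the suprabasal layers, where it promotes the commitment of keratinocytes to differentiation. Numb, an endocytic adaptor, is known as an inhibitor of the receptor.

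The genes described here are 10 listed Notch genes: the receptors Notch1, Notch2 and Notch3, the ligands Jag1, Jag2 and Dll1, the nuclear factor Rbpj, the targets Hes1 and Hey1, and the inhibitor Numb. They were taken by symbol from a table of 15037 named genes, and 9 of the 10 had a named probe, 1 probe each. Jag2 was not analysed here.

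RNA of cultured newborn rat epidermal keratinocytes, the cells that form the outer layer of the skin, was measured on oligonucleotide arrays that cover whole transcripts. The control array is titled NC+VC, and its cells are described as non-treated although they received vitamin C. The siTet2/3 array held cells that had received siRNAs to Tet2 and to Tet3, at 1 µM each. Both cultures were grown with 10% serum and 0.4 µg/mL hydrocortisone, and both received vitamin C for 12 h, beginning 24 h after transfection, so vitamin C is common to both sides of the comparison. Tet2 and Tet3 encode enzymes that oxidise methylated cytosine, the first step of removing DNA methylation, and vitamin C is a cofactor of that reaction. The labels do not say whether the control cells received another siRNA, and no array without vitamin C was used here.

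Each group had 1 array, so no test was possible, the spread between cultures is unknown, and every statement of higher or lower is about these 2 arrays. Levels below are log2 signals as deposited, and differences are siTet2/3 minus control in log2 units. A background floor of 5.04 log2 units was set from chemoreceptor genes, which keratinocytes are not expected to express, and 8103 genes passed it on at least 1 array, 7504 of them on both. The size of the knockdown was not analysed here, since Tet1, Tet2 and Tet3 each had 0 named probes. The median difference, siTet2/3 minus control, of the 8103 genes was -0.05. Of the 9 keratinocyte markers listed, 6 had a named probe and all 6 lay above the floor on both arrays, with signals from 12.68 to 18.86. None of the 7 fibroblast markers passed the floor. Single markers of other cell types did: Mitf (melanocytes), Tek (endothelium), Cd68 (immune cells), Sox2 (Merkel cells) and Acta2 (smooth muscle), each the 1 gene of its list above the floor. Sox2 passed on the control array alone (5.71, against 4.93 in siTet2/3 cells). Tek read 9.66 in control cells and 9.25 in siTet2/3 cells, far above the floor. The defining endothelial genes Pecam1 and Cdh5 read between 2.89 and 4.08 log2 units. Among 5 pericyte and smooth muscle markers, a cell group in which Notch3 is known to be expressed, the mean level was 3.90 in control cells and 4.36 in siTet2/3 cells. Of these, 4 stayed below the floor on both arrays, and Acta2, the gene above it, read 8.03 and 7.93. In bulk RNA of this kind, fewer cells of a type and less RNA per cell cannot be told apart.

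The promoter of Hes1 is shown because it carries matches to the core of the site that RBPJ is known to bind. Promoter sequences came from a RefSeq table of the rat build GRCr8, in which 9 of the 10 symbols were found; Hey1 was not matched. The 250 bases before each annotated start were searched on both strands for TGGGAA, the core of the RBPJ site, and for GTGGGAA, a longer form that overlaps it. The Hes1 stretch lies at chr11:84213046-84213295 on the minus strand and is written 5′ to 3′, with each TGGGAA in capitals.
Hes1: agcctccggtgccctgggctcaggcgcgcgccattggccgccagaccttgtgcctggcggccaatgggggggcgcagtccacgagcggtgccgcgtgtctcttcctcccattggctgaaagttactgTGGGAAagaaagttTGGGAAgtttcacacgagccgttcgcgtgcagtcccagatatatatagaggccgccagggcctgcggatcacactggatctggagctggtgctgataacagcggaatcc
The Hes1 promoter held 2 copies of TGGGAA on the forward strand, the first starting 123 bases and the second 109 bases before the annotated start, and the first is also a GTGGGAA. Of 33469 promoter entries of the same length, 22.1% held TGGGAA at least once, 2.71% held it 2 or more times, and 5.27% held GTGGGAA. Among the other listed genes, Dll1 held 2 copies on opposite strands, and the entries of Rbpj held 1 and 2. No copy was present in these windows of Notch1, Notch2, Notch3, Jag1, Jag2 or Numb. A match describes the letters and was not a measurement of binding. Other forms of the site were not searched for, so the capitals need not mark every RBPJ site or the sites that are used.

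CpG dinucleotides, the sites at which DNA is methylated and TET enzymes act, are marked for Numb and Notch1, the inhibitor and the receptor it is known to act on. The Numb stretch is the 186 bases at chr6:109284528-109284713 (GRCr8, minus strand), beyond the outermost annotated start of the gene. The Notch1 stretch is the 250 bases at chr3:29721614-29721863 (minus strand). Both are written 5′ to 3′, with each CpG in capitals.
Numb: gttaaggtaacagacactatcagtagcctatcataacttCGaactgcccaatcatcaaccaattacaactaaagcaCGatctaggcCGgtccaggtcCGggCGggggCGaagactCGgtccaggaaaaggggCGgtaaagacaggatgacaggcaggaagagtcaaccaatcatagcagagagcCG
Notch1: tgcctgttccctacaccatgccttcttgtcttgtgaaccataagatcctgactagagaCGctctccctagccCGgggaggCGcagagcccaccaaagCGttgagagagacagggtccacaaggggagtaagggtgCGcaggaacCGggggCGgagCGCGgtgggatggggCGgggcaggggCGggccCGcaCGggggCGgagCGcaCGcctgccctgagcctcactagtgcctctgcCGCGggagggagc
Numb had 11 CpGs in its 250-base window, the lowest number among the 11 entries of the listed genes, and 9 of them fall in the stretch shown. Notch1, Hes1 and Dll1 had 18 each, and the highest number was 48, in an entry of Jag2. The median was 19 over the 11 entries of the listed genes, 5 over all 33469 promoter entries and 17 over the entries of genes above the floor. Of all entries, 66.4% had fewer CpGs than Numb. Methylation at these sites was not measured here.

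Among the receptors, Notch1 read slightly higher and Notch2 slightly lower on the siTet2/3 array. Notch1, the receptor best known for promoting keratinocyte differentiation, read 9.29 in control cells and 9.67 in siTet2/3 cells. The difference of 0.38 is 1.30-fold and stayed under the 1.5-fold limit used here. Notch2 read 6.08 in control cells and 5.61 in siTet2/3 cells, a difference of -0.47, or 1.38-fold lower, also under that limit. The receptors above the floor on both arrays therefore lay on opposite sides of 0.

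Notch3 read 4.17 in control cells, below the floor, and 5.16 in siTet2/3 cells, just above it. As measured the difference was 1.00 log2 units (1.99-fold higher), but against the floor it is at least 1.09-fold higher. A gene that passes the floor on the siTet2/3 array alone has to differ, and of 310 named genes that did so, 60.3% were at least 1.5-fold higher as measured.

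Both listed ligands with a probe read higher on the siTet2/3 array as measured, but only Jag1 lay above the floor on both arrays. Jag1, a ligand known to be expressed in differentiating keratinocytes, read 10.51 in control cells and 10.92 in siTet2/3 cells. Its difference was 0.41, or 1.33-fold. Dll1, a ligand known from basal keratinocytes with stem cell properties, read 4.85 in control cells, below the floor, and 5.25 in siTet2/3 cells. Its measured difference was also 0.41, and its bound against the floor is at least 1.16-fold higher. With low values set to the floor, the difference was 0.21 for Dll1 and stayed 0.41 for Jag1. Of the 500 genes nearest in mean level, 51.8% differed by as much as Dll1 or more in either direction, and 28.4% around Jag1.

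Rbpj, the DNA-binding partner of the cleaved receptor, differed least among the 6 listed genes above the floor on both arrays. It read 9.48 in control cells and 9.63 in siTet2/3 cells, a difference of 0.14 or 1.10-fold. Of the 500 genes nearest to it in mean level, 74.4% differed by as much or more in either direction.

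**Figure D1:**
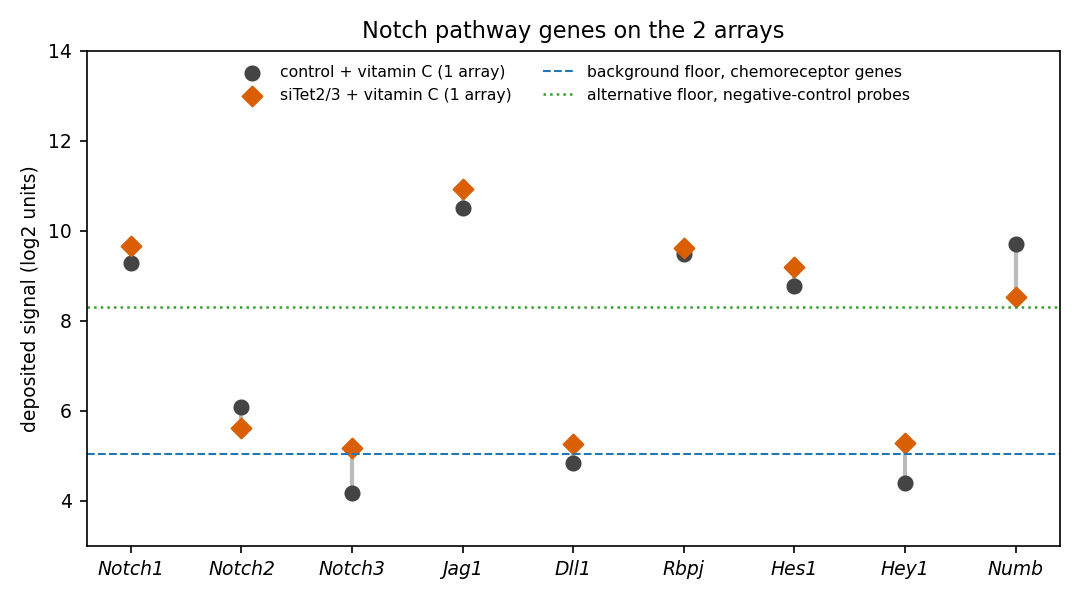
Deposited log2 signal of the 9 Notch genes with a named probe, on the control array (circles) and the siTet2/3 array (diamonds), 1 array each; grey bars join the values of a gene, the dashed line is the floor of 5.04 and the dotted line the alternative floor of 8.31 from negative-control probes. Numb reads 9.70 and 8.53, while Notch3, Dll1 and Hey1 cross the dashed line.

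The targets Hes1 and Hey1 both read higher on the siTet2/3 array. Hes1, a transcriptional repressor known to keep spinous cells from differentiating too early, read 8.77 in control cells and 9.19 in siTet2/3 cells. That is a difference of 0.42, or 1.34-fold. Whether the motifs printed above bear on this difference was not tested. Hey1, a related repressor, read 4.40 in control cells, below the floor, and 5.29 in siTet2/3 cells. Its measured difference was 0.89 (1.85-fold), and its bound is at least 1.19-fold higher.

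Notch1, Jag1 and Hes1, a receptor, a ligand and a target, all lay above the floor on both arrays and differed by 0.38 to 0.42 log2 units, or 1.30-fold to 1.34-fold higher. The size is close to the spread of genes of like level: the robust SD of the difference among the 500 genes nearest in mean level was 0.40 around Notch1, 0.38 around Jag1 and 0.44 around Hes1. Within those 500 genes, 65 read higher by at least as much as Notch1, 56 by at least as much as Jag1 and 64 by at least as much as Hes1. Differences of this size were thus frequent on these arrays.

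Numb differed most of the 6 listed genes that passed the floor on both arrays, and it read lower, as Notch2 did. Numb stood at 9.70 in control cells and 8.53 in siTet2/3 cells, a difference of -1.17, or 2.25-fold lower. Of the 500 genes nearest to Numb in mean level, whose robust SD was 0.43, 6 read lower by as much or more. Centring on the median difference gave -1.12 and subtracting a trend on level gave -1.10. The 3 named genes whose pair of values lay nearest to that of Numb over the 2 arrays were Ctdnep1 (9.73 and 8.62 log2 units, distance 0.10), Wdr77 (9.79 and 8.60, distance 0.12) and Rfx7 (9.57 and 8.55, distance 0.13).

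Counted over the 9 genes with a probe, 2 were at least 1.5-fold higher as measured (Notch3 and Hey1), 1 was at least 1.5-fold lower (Numb) and 6 were neither. The background shares over the 8103 genes were 8.63% at least 1.5-fold higher and 13.2% at least 1.5-fold lower; over the 7504 genes that passed on both arrays they were 6.82% and 12.0%. When low values were set to the floor, 0 of the 9 were 1.5-fold higher and Numb remained lower. The median difference was 0.41 over the 9 genes and 0.26 over the 6 above the floor on both arrays, where it was -0.06 over all 7504 such genes. Of the 6, 4 had a difference above 0 and 2 below, while 44.0% of the 7504 genes were above 0.

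**Figure D2:**
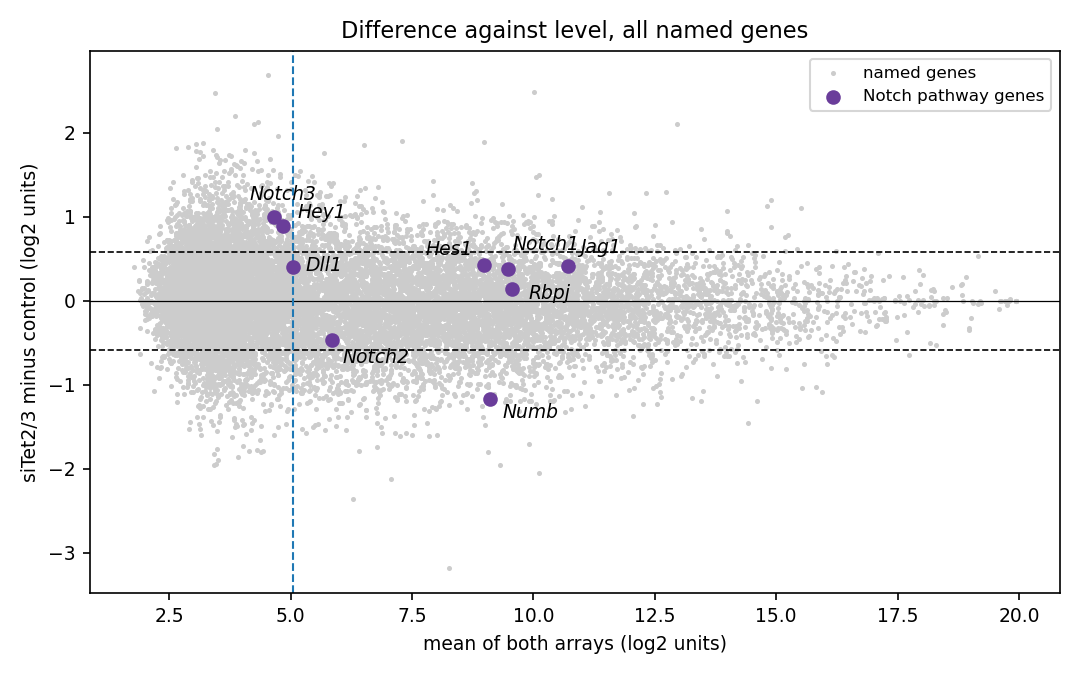
Difference siTet2/3 minus control (log2 units) against the mean of both arrays (log2 units) for all named genes (grey) and the 9 Notch genes (purple, labelled); dashed horizontal lines mark 1.5-fold and the vertical line the floor of 5.04. Numb, at -1.17, lies below the lower line in a range where few grey points reach as far, and Notch3 and Hey1 lie above the upper line left of the floor, where the grey cloud is widest.

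The other genes of the pathway were described from a list of 81 further genes by role, of which 64 had a named probe and 47 lay above the floor on at least 1 array. Of these 47, 2 were 1.5-fold higher or more, 5 were 1.5-fold lower or more and 40 were neither. Their median difference was -0.0016, near that of all genes. The shares do not exceed those of all genes given above.

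The lower ones included 3 of the genes that process the receptor, Ncstn, Furin and Psen2. Past 1.5-fold, 3 of the 8 cleavage genes that cleared the floor read lower and 0 higher, with a median difference of -0.34, beside background shares of 13.2% and 8.63%. On both arrays above the floor, the count was 2 of 7 with a median of -0.25, beside 12.0% of all such genes. Ncstn, which encodes the γ-secretase subunit nicastrin, read 7.98 in control cells and 7.12 in siTet2/3 cells, or 1.81-fold lower. Both of its values lie under the alternative floor of 8.31 from negative-control probes. Furin, a proprotein convertase that processes the receptor on its way to the surface, read 11.83 and 11.18, or 1.57-fold lower. Psen2, a catalytic presenilin, read 5.08 in control cells and 4.41, below the floor, in siTet2/3 cells, a bound of at least 1.03-fold lower; of 289 named genes above the floor on the control array alone, 57.4% were 1.5-fold lower as measured. The remaining γ-secretase subunits, singled out after their values were seen, read lower by less: Aph1a by -0.43, Aph1b by -0.25 and Psenen by -0.13. Among all 8103 genes above the floor, 4458 had a difference below 0, so a sign below 0 was common. The ADAM protease genes Adam10 and Adam17, whose products make the preceding cut, differed by 0.11 and 0.14.

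Among 8 genes of receptor trafficking and turnover, all above the floor on both arrays, 2 were 1.5-fold lower or more and 1 was higher, beside background shares of 12.0% and 6.82%. Besides Numb, which is already counted among the listed genes, the lower one was Aak1, which encodes a kinase of clathrin adaptors that is known to phosphorylate Numb. Aak1 read 10.50 in control cells and 9.31 in siTet2/3 cells, a difference of -1.19, close in size to that of Numb. Numbl, the paralogue of Numb, read 5.38 and 5.57, a difference of 0.19 in the other direction. Dtx3l, a ubiquitin ligase of the Deltex family, was 1.52-fold higher (6.73 against 7.33). The ubiquitin ligase genes Itch and Nedd4 differed by -0.18 and 0.37.

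**Figure D3:**
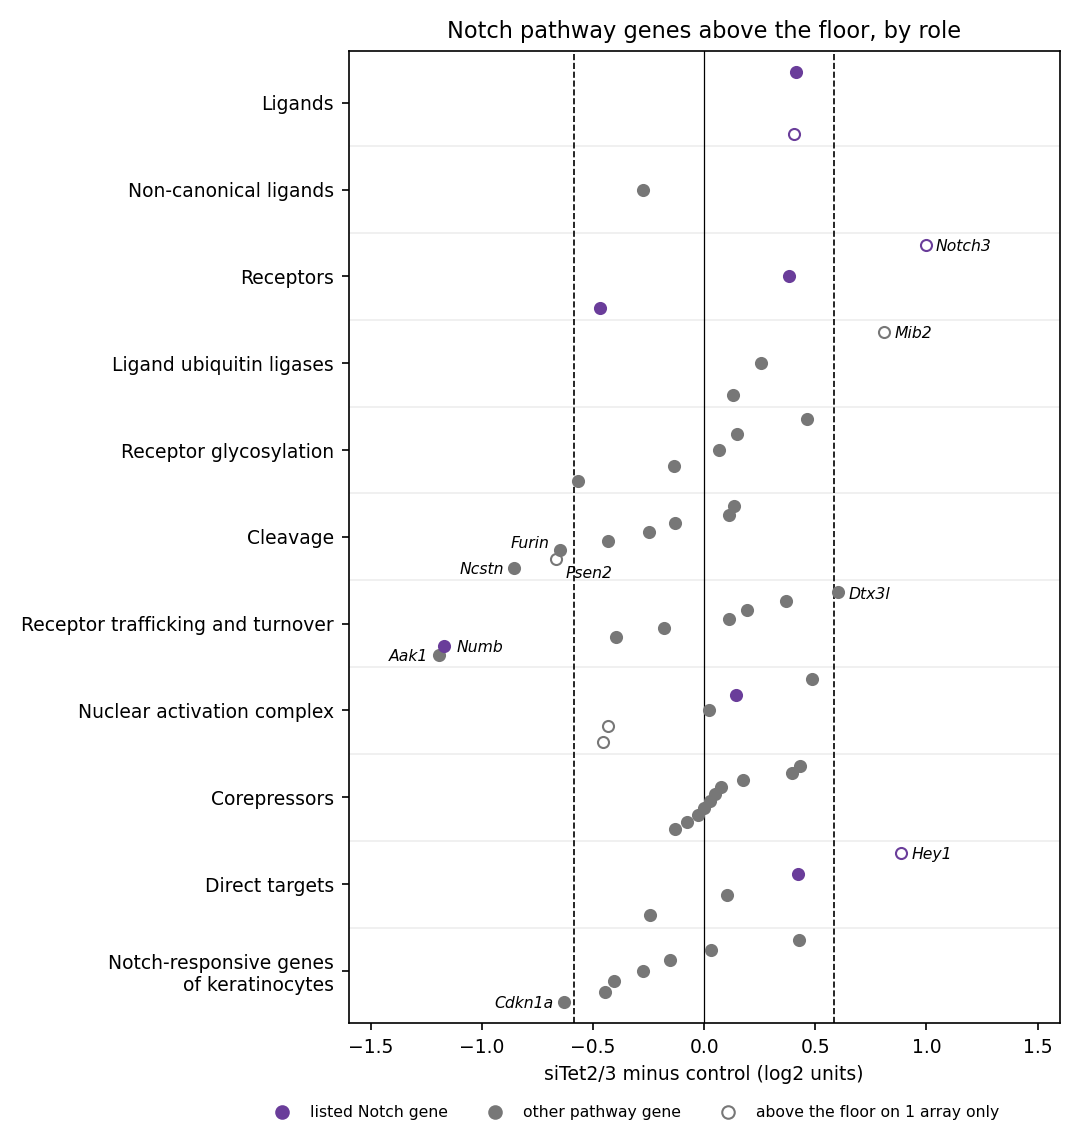
Difference siTet2/3 minus control (log2 units) of the pathway genes above the floor, in rows by role; purple points are the listed Notch genes, grey points other pathway genes, open points genes above the floor on 1 array, vertical spread within a row separates points, and dashed lines mark 1.5-fold. Numb and Aak1 lie together near -1.2, the cleavage genes lie mostly left of 0 and the corepressors lie within the dashed lines.

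Ligand ubiquitin ligases, which activate the ligands, had 1 of 3 genes past the limit as measured, Mib2 (1.75-fold higher). The share of all 8103 genes at least 1.5-fold higher was 8.63%. Mib2 was under the floor in control cells, so its bound is at least 1.09-fold higher, and with low values set to the floor 0 of the 3 passed. Of 5 glycosylation genes, which tune how receptors respond to ligands, 0 passed in either direction; Pofut1, which adds O-fucose to the receptor, differed most (-0.57, from 6.90 log2 units) and the fringe gene Rfng read 0.46 higher. The non-canonical ligand Dlk2 differed by -0.28. The 5 genes of the nuclear activation complex had 0 past the limit, and the histone acetyltransferase gene Crebbp differed most, by 0.49. All 10 corepressor genes stayed under 1.5-fold, with a median of 0.04 and the Groucho-family gene Tle4 differing most, by 0.43.

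Of the 4 direct targets above the floor, Hey1 was the 1 at least 1.5-fold higher as measured, beside 8.63% of all 8103 genes. Hey1 passed the floor on the siTet2/3 array alone, where 60.3% of 310 genes were that much higher. With low values set to the floor, 0 of the 4 passed. A further 5 targets with a probe lay below the floor on both arrays. Nrarp, a target that also feeds back on the receptor complex, read 8.44 in control cells and 8.20 in siTet2/3 cells, a difference of -0.24, opposite in sign to Hes1. Hes5 read 5.27 and 5.37, close to the floor.

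Genes described as Notch-responsive in keratinocytes had 1 of 7 at least 1.5-fold lower and 0 higher, with a median difference of -0.28. All 7 lay above the floor on both arrays, where 12.0% of all genes were lower by that much, so the count is near the background. Cdkn1a, which encodes the cell cycle inhibitor p21, read 13.03 in control cells and 12.40 in siTet2/3 cells, or 1.55-fold lower; after centring it was 1.49-fold lower. The spinous keratin gene Krt1 differed by -0.45, Tp63, which Notch signalling is known to oppose, by -0.41, and Wnt4 by 0.43.

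**Figure D4:**
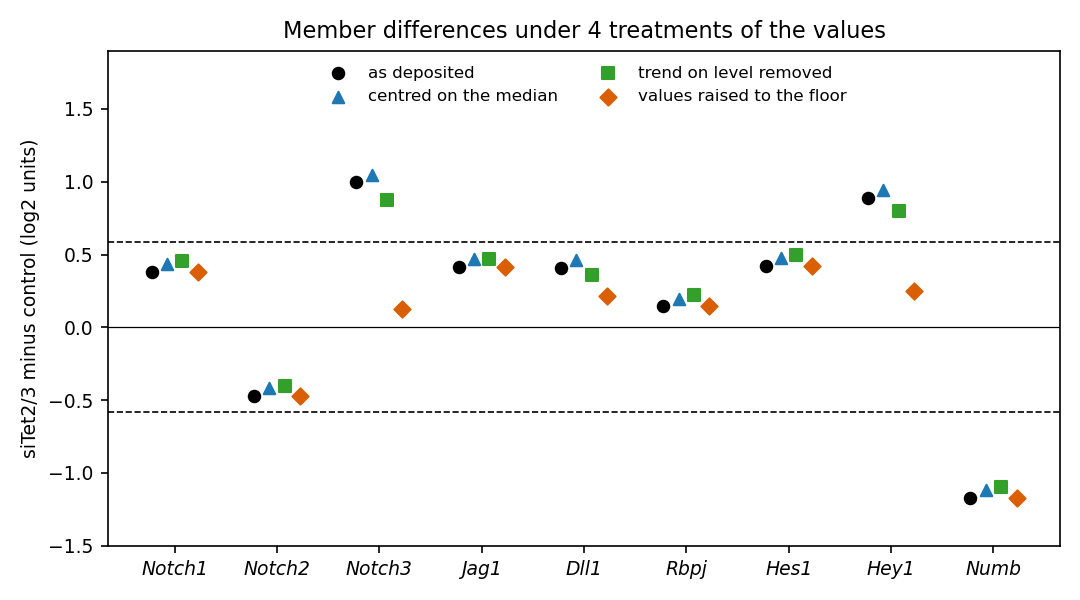
Difference siTet2/3 minus control (log2 units) of the 9 Notch genes as deposited, centred on the median difference, after subtracting a trend on level, and with low values set to the floor; dashed lines mark 1.5-fold. Numb stays below the lower line under each, between -1.17 and -1.10, and Notch3 and Hey1 lose their place above the upper line when values are raised to the floor.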

How the data were processed

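The authors deposited a table of log2 signals by probe set with 1 column for each of the 2 arrays. The submitters' processing notes name RMA, which corrects background, quantile-normalises and summarises probes, and also the Transcriptome Analysis Console; neither version nor settings appear. Both columns had nearly the same distribution (medians 4.85 and 4.90), so differences are relative to the bulk of genes. Values reach 19.93, above the usual range of RMA, so the scale may have been transformed again before deposit. Genome build: not given in the sources used here. The table had 24834 rows and 0 columns of unknown samples.

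A platform annotation named 15049 probes, all found by entrez identifier in RefSeq; probes of 1 gene were averaged, which gave 15037 genes. The floor was the 95th percentile, over 1206 chemoreceptor genes, of the higher of both values. The difference siTet2/3 minus control was computed for each gene, with a limit of 1.5-fold and no p-value. Where 1 value lay below the floor the fold is a bound computed from the brighter value and the floor. The trend on level was a lowess fit (fraction 0.3, statsmodels 0.14.6). The procedure was run on simulated data, to check that planted differences were recovered. The simulated spread was narrower than that around the listed genes here, so the run gives no error rate for these arrays. In each role, up to 3 genes per direction past the limit were named, or otherwise the one with the largest difference; further genes of a role and the marker genes were named after their values were seen. The listed genes and lists were chosen with earlier results of these data known.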

Additional observations from a re-analysis of the deposited data

How the results depend on the processing

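Alternatives changed 1 choice at a time. Numb stayed at least 1.5-fold lower under each alternative run, and with a 2-fold limit (1 of 9 genes, against 3.05% of all genes). The 2 genes counted as 1.5-fold higher, Notch3 and Hey1, became 0 with a floor 1 log2 unit higher, a floor from negative-control probes (8.31 log2 units), both values above the floor, values raised to the floor, or a 2-fold limit. With values raised to the floor the differences were 0.12 for Notch3 and 0.25 for Hey1. The median of the listed genes was 0.26 with a floor 1 log2 unit higher or with both values above the floor, and 0.21 with values raised to the floor. Of the further pathway genes, the 2 higher became 8 with no floor, 1 with a floor 1 log2 unit higher, both values above the floor or values raised to the floor, and 0 with a negative-control floor or a 2-fold limit. The 5 lower became 3 with a negative-control floor, which Ncstn and Psen2 did not reach, and 1 at 2-fold. Of the 9 listed genes, 5 passed the negative-control floor, and Notch2 was among those that did not. Centring, trend removal and the brightest probe moved none of these counts by over 1.5 times. No paired analysis was possible because each group has 1 array, and for the same reason no array could be left out. The number of arrays limits the precision of every value.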

Other observations

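Of the pathway genes with a named probe, 17 lay below the floor on both arrays, among them the receptor gene Notch4 (2.76 in control cells and 3.98 in siTet2/3 cells), the ligand genes Dll3 (2.50 and 3.11) and Dll4 (3.12 and 2.80), and the target genes Hey2 (3.99 and 2.90) and Heyl (3.17 and 3.89). Their differences ran from -1.09 to 1.22 log2 units, with 6 at least 1.5-fold higher and 2 at least 1.5-fold lower as measured. Among all 6934 named genes below the floor on both arrays, 14.2% were at least 1.5-fold higher and 8.94% at least 1.5-fold lower. Both values of these genes lie under the floor, so the counts describe the signals as deposited and no fold is read from them for a single gene.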
